A study of Mus musculus with 6 samples.

Results

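The genes described here are the 3 TGF-β ligands, *Tgfb1*, *Tgfb2* and *Tgfb3*, and the 4 latent TGF-β binding proteins, *Ltbp1*, *Ltbp2*, *Ltbp3* and *Ltbp4*. They were chosen by name, and all 7 were found among the 24421 rows of a matrix of gene levels from sorted aortic cells. To compare cells of different embryonic origin in the proximal aorta, the study used mice of the 129S6/SvEv background at 8 weeks of age. All carried the conditional *CAG-Sun1/sfGFP* tracer allele, which labels the nuclear envelope with GFP once a Cre recombinase has acted. In 3 libraries the Cre was *Mef2cSHF*, which marks descendants of the secondary heart field (SHF), and in the other 3 it was *Wnt1-Cre2*, which marks descendants of the cardiac neural crest (CNC). All 6 libraries are labelled WT, for wild type, and no disease allele or treatment is named for either group. Living GFP+ cells of the aortic root and ascending aorta were sorted, so each library holds every labelled cell type of a lineage, and neither Cre selects for smooth muscle. The labels do not say whether a library came from 1 mouse or from several.

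TGF-β ligands are made as precursors. Proprotein convertases cut the mature ligand from its propeptide, which stays wrapped around it and keeps it latent. Latent TGF-β binding proteins attach to that complex by disulfide bonds and anchor it to fibronectin and fibrillin microfibrils, from which integrins and proteases release active ligand. *Ltbp1*, *Ltbp3* and *Ltbp4* encode proteins that carry latent ligand, whereas the product of *Ltbp2* is a microfibril protein that does not bind it. In the aortic wall the pathway controls matrix production and smooth muscle phenotype, and mutations in *TGFB2*, *TGFB3* and *LTBP3* are known causes of human aortic aneurysm.

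Levels are TPM, a length-corrected share of a library's transcripts scaled to 1000000, so genes can be compared with each other within a library. The number of reads behind a TPM value is unknown, and no detection limit is given. Between 9255 and 11858 genes were above 0 TPM in a library. Amplification from little RNA can leave an expressed gene at 0, so a value of 0 is given as listed at 0. Replicates of a lineage differ by spread that can be biological or technical, and p-values measure only the spread between these libraries. *Xist*, the transcript of the inactive X chromosome, reached 51.95 and 38.76 TPM in SHF replicates 2 and 3 but was listed at 0 in the other 4 libraries. The Y-linked *Ddx3y* and *Eif2s3y* were listed at 0 in those 2 libraries and reached at least 42.24 and 23.09 TPM in the other 4. By these transcripts, sex was not balanced between the lineages. The part of sex in the results was not tested.

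Markers of cell type were summed per library. The 10 fibroblast markers, led by *Lum*, *Mfap5* and *Ly6a*, summed to between 5878 and 7686 TPM in SHF libraries and to between 11241 and 11973 TPM in CNC libraries. All 10 had a log2 fold change below 0, that is toward CNC, and 6 had CNC libraries all above the SHF libraries, against 5.68% of all genes tested. The 10 smooth muscle markers, led by *Acta2*, *Tagln* and *Myh11*, summed to between 922 and 2132 TPM in SHF and between 844 and 1282 TPM in CNC libraries, less than the fibroblast sum in every library. *Tagln* was 2.34 times as high in SHF by the means, with an unadjusted p of 0.0234 and an adjusted p of 0.771 in limma, while *Acta2* and *Myh11* were at 1.17 and 1.02 times. The 10 endothelial markers summed to 89.5, 591 and 525 TPM in SHF replicates 1, 2 and 3 and to between 37.6 and 61.0 TPM in CNC libraries, where *Cdh5*, *Tie1*, *Emcn*, *Cldn5* and *Vwf* were all listed at 0. Others were present there, *Pecam1*, the highest of the list, at 9.72 to 37.86 TPM and *Tek* at 1.11 to 36.71 TPM in CNC libraries. The 10 leukocyte markers summed to between 178 and 387 TPM in SHF libraries and to 79.6, 537 and 19.5 TPM in CNC replicates 1, 2 and 3, with the defining marker *Ptprc* listed at 0 throughout. In SHF libraries most of the sum was *Cd74*, an antigen presentation gene, at 258.07, 386.63 and 151 TPM. The highest sum of each remaining list over the 6 libraries was 23.2 TPM for 5 platelet markers, 63.2 TPM for 5 Schwann cell markers, 24.0 TPM for 4 melanocyte markers, 40.3 TPM for 4 mesothelial markers, 24.4 TPM for 4 adipocyte markers and 325 TPM for 3 erythroid markers. The 7 cardiomyocyte markers summed to between 67.4 and 126 TPM in SHF libraries and between 0.73 and 37.9 TPM in CNC libraries, with no overlap. None of the 7 separated the lineages by itself. *Tnnt2*, the highest, was at 21.49, 87.44 and 60.93 TPM across SHF replicates 1, 2 and 3 and at 22.06 TPM in CNC replicate 1. The 9 dissociation response genes, led by *Fos*, *Junb* and *Egr1*, summed to between 5400 and 9937 TPM in SHF and between 5890 and 7346 TPM in CNC libraries. In bulk samples, fewer cells of a type and less RNA per cell cannot be told apart.

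**Figure D1:**
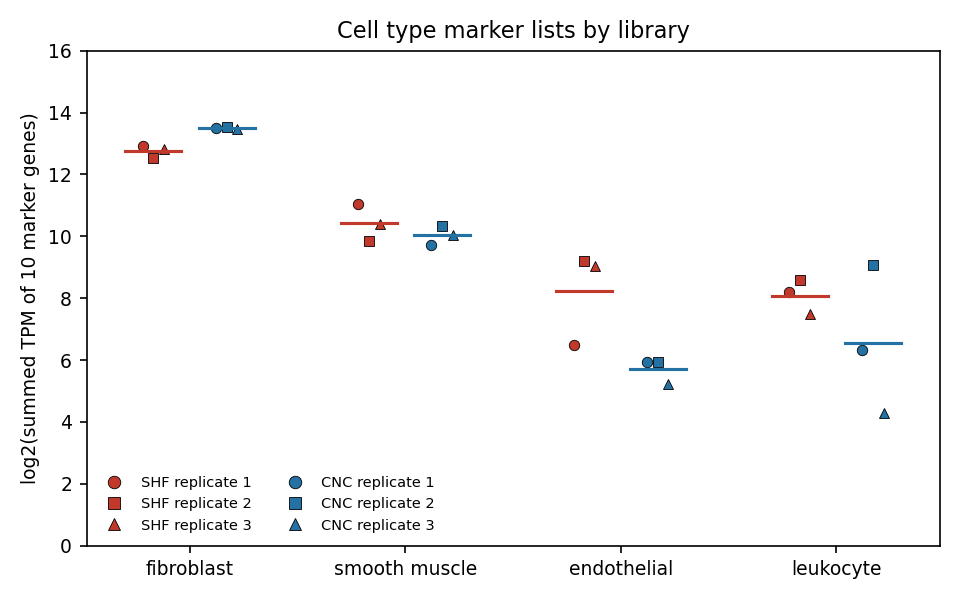
Summed TPM of 10 marker genes for each of 4 cell types, on a log2 axis, in 3 SHF (red) and 3 CNC (blue) libraries, with bars at the lineage means. Fibroblast sums lie above smooth muscle sums in every library, and the endothelial sums of SHF replicates 2 and 3 lie above those of the other 4 libraries.

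*Tgfb3* and *Ltbp4* were the main ligand and the main binding protein transcripts in both lineages. *Ltbp4*, whose product also helps assemble elastic fibers, had the highest level of the 7 genes in all 6 libraries. *Tgfb3* was next in every library, and *Tgfb1* was lowest in every library. Ranked by mean TPM over the matrix, *Ltbp4* was gene 165, *Tgfb3* 656, *Ltbp1* 1272, *Ltbp2* 1871, *Tgfb2* 2859, *Ltbp3* 3312 and *Tgfb1* 11063. On the log2(TPM + 1) scale, *Ltbp4* exceeded *Tgfb3* within a library by 1.99 ± 0.46 (SD, n = 6), and *Tgfb3* exceeded *Ltbp1* by 1.06 ± 0.52 (SD, n = 6). *Ltbp3*, the sixth in the order, exceeded *Tgfb1* by 4.10 ± 1.66 (SD, n = 6). These 3 steps held in 6 of 6 libraries, with an exact two-sided sign-flip permutation p of 0.03125, the smallest that 6 libraries can give, and 0.0625 after adjustment over the 6 neighbouring pairs. None of the 6 pairs passed 0.05 after adjustment. The order was taken from the means of these same libraries, so the p-values are not an independent test of it. *Ltbp1* was above *Ltbp2* in 5 of 6 libraries (exact permutation p = 0.0938, adjusted 0.141), *Ltbp2* above *Tgfb2* in 4 of 6 (exact permutation p = 0.562), and *Tgfb2* above *Ltbp3* in 4 of 6 (exact permutation p = 0.469), the last 2 pairs both at 0.562 after adjustment.

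**Figure D2:**
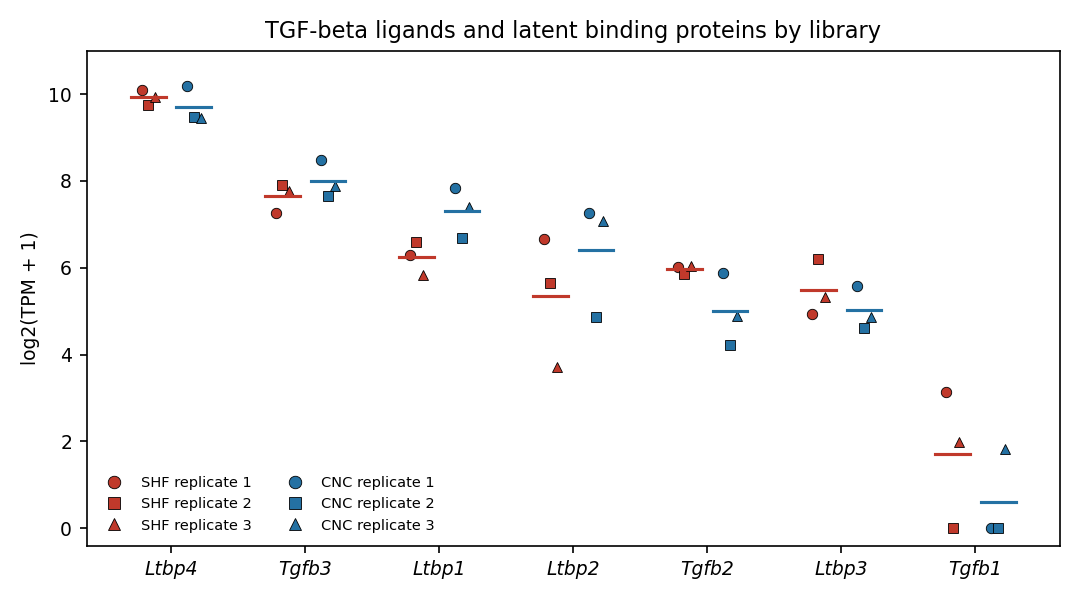
Levels of the 7 genes as log2(TPM + 1), in the order of their means, in 3 SHF (red) and 3 CNC (blue) libraries, with bars at the lineage means. *Ltbp4* and *Tgfb3* are above the other genes in every library, *Tgfb1* is listed at 0 in 3 libraries, and only *Ltbp1* has all CNC libraries above all SHF libraries.

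Promoter sequences are shown for 3 of the genes, as the 250 bases before the start site, from RefSeq on GRCm38.p6. The table holds promoters for 6 of the 7 genes, all except *Tgfb3*. Capitals mark TATAAA, TGACGTCA (the cAMP response element) and GGGCGG (the GC box), each found on either strand, so that a GC box on the other strand reads CCGCCC. *Tgfb1*, chr7:25686752-25687001, forward strand, is the ligand with the lowest level. *Tgfb2*, chr1:186705990-186706239, reverse strand, is the ligand that made up a larger share of ligand TPM in every SHF library than in any CNC library. *Ltbp1*, chr17:75005279-75005528, forward strand, is the binding protein whose level did not overlap between lineages.
Tgfb1: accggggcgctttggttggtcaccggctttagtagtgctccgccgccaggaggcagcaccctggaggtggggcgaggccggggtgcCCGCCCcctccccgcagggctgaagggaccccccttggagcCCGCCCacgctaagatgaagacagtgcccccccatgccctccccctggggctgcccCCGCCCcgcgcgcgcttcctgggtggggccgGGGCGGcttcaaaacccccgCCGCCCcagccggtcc
Tgfb2: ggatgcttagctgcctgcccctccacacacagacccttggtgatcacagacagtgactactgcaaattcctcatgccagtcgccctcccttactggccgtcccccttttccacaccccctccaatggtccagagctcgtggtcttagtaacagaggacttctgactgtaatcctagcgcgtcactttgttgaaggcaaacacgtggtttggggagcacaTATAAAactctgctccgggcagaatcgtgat
Ltbp1: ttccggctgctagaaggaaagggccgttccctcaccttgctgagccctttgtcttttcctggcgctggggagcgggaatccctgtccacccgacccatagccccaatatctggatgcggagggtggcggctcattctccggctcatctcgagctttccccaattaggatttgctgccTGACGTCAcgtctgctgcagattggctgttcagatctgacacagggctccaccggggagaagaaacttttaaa

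The *Tgfb1* promoter held 5 GC boxes and neither of the other marked motifs, and 75.2% of its bases were G or C, against a median of 52% over all promoters. The *Tgfb2* promoter held 1 TATAAA, its first base at -31 from the start site, and 1 E-box, CACGTG, at -51, with 53.6% G or C. The window also overlaps an exon of the antisense gene *Gm29491*. The *Ltbp1* promoter held 1 TGACGTCA at -73, with 56.8% G or C. Of 27025 promoters of this length, 1 per gene, 32.9% held GGGCGG, 13.0% TATAAA, 6.05% CACGTG and 1.62% the cAMP response element. The AP-1 motif TGANTCA, found in 6.87% of promoters, was in none of the 9 promoters of the 6 genes, nor was the Smad palindrome GTCTAGAC, found in 0.174%. A match describes the letters of the window and is not evidence of binding. A second start site of *Ltbp1*, 173 kb downstream and within the gene, gives the short form of the protein, and a gene-level TPM does not separate the forms. *Tgfb1* and *Ltbp4* lie 1.60 Mb apart on chromosome 7 with 30 protein-coding genes between them, and *Ltbp2* and *Tgfb3* lie 1.18 Mb apart on chromosome 12 with 18 between them.

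Among the ligands, *Tgfb3* was at 152.44, 239.64 and 218.1 TPM across SHF replicates 1, 2 and 3, against 357.72, 199.93 and 237.06 TPM across CNC replicates 1, 2 and 3. The lowest library was SHF replicate 1 and the highest CNC replicate 1, and the other 4 libraries of both lineages lay mixed between them. The means were 203 ± 45.4 TPM (SD, n = 3) in SHF and 265 ± 82.5 TPM (SD, n = 3) in CNC libraries, a log2 fold change, SHF minus CNC, of -0.36 with a 95% interval from -1.16 to 0.44. *Tgfb3* lies on chromosome 12 of GRCm38 from 86056745 to 86079041, on the reverse strand, with 1 annotated coding transcript. Its exons overlap 2 noncoding genes of the other strand, *Gm37804* and *Gm48008*, whose reads would not be told apart, since the library kit does not mark strand.

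*Tgfb2*, a ligand needed for development of the outflow tract and heart valves, was at 63.34, 57.11 and 64.62 TPM across SHF replicates 1, 2 and 3, against 57.97, 17.56 and 28.82 TPM across CNC replicates 1, 2 and 3. The SHF libraries were nearly level, at 61.7 ± 4.02 TPM (SD, n = 3). The CNC libraries were scattered, at 34.8 ± 20.9 TPM (SD, n = 3), and CNC replicate 1 reached just above the lowest SHF library, so the lineages overlapped by that library alone. The log2 fold change was 0.97 with a 95% interval from -0.42 to 2.36. Endothelial marker sums were also higher in SHF libraries, at 89.5, 591 and 525 TPM, and their part in the *Tgfb2* values was not tested. *Tgfb2* lies on chromosome 1 from 186622792 to 186705989, on the reverse strand, and shares exonic sequence with the antisense gene *Gm29491*.

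*Tgfb1*, the ligand best known from platelets and immune cells, reached 7.78 and 2.96 TPM in SHF replicates 1 and 3 and 2.53 TPM in CNC replicate 3, and was listed at 0 in the other 3 libraries. The part of leukocytes and platelets in these values was not tested. Its log2 fold change of 1.10 had a 95% interval from -1.20 to 3.40, and it depends on the pseudocount, since 3 of the 6 values are 0. Leaving out SHF replicate 1 gave 0.39, and leaving out SHF replicate 2 gave 1.95. *Tgfb1* lies on chromosome 7 from 25687002 to 25705077, on the forward strand, and no other annotated exon overlaps its exons.

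The sum of the 3 ligands ran from 224 to 297 TPM in SHF and from 217 to 416 TPM in CNC libraries, and overlapped between the lineages (exact two-sided permutation p = 0.9). Its makeup did not overlap. *Tgfb3* made up 68.2, 80.8 and 76.3% of ligand TPM across SHF replicates 1, 2 and 3, against 86.1, 91.9 and 88.3% across CNC replicates 1, 2 and 3. *Tgfb2* made up most of the rest, at 28.3, 19.2 and 22.6% in SHF and 13.9, 8.07 and 10.7% in CNC libraries. *Tgfb3* TPM was thus between 2.41 and 4.2 times *Tgfb2* TPM in SHF libraries and between 6.17 and 11.4 times in CNC libraries, with no overlap. The log2 ratio of *Tgfb2* to *Tgfb3*, each with a pseudocount of 1 TPM, was -1.68 ± 0.40 (SD, n = 3) in SHF and -3.01 ± 0.42 (SD, n = 3) in CNC libraries, a difference of 1.33. Its exact two-sided permutation p was 0.1, the smallest that 3 libraries against 3 can give, and 0.4 after adjustment over the 4 ratios compared. The part of cell makeup in the ratio was not tested. The ratio of *Tgfb1* to the other ligands overlapped between lineages (exact permutation p = 0.4).

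**Figure D3:**
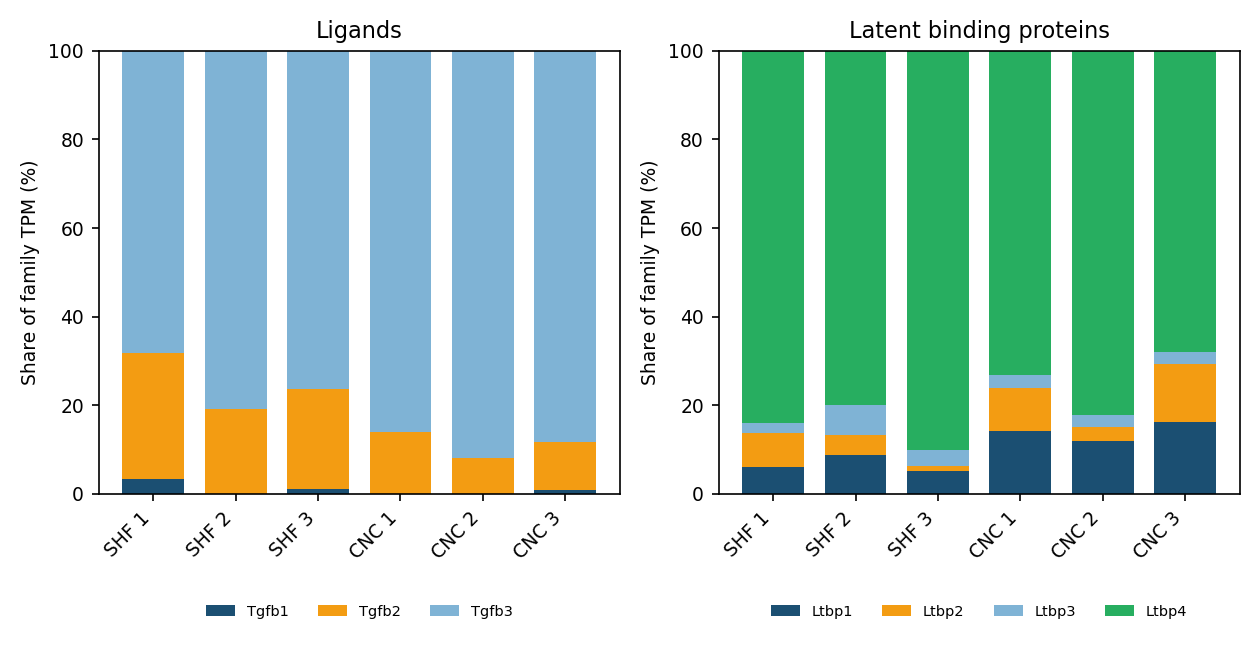
Share of summed TPM taken by each ligand (left) and by each latent binding protein (right), in percent, 1 bar per library. *Tgfb2* takes 19.2 to 28.3% of ligand TPM in SHF and 8.07 to 13.9% in CNC libraries, and *Ltbp1* takes 5.12 to 8.83% of binding protein TPM in SHF and 11.9 to 16.3% in CNC libraries.

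Of the binding proteins, *Ltbp1*, the first known carrier of latent ligand, was at 77.64, 95.52 and 55.79 TPM across SHF replicates 1, 2 and 3, against 226.9, 102.12 and 168.73 TPM across CNC replicates 1, 2 and 3. Every CNC library was above every SHF library, although CNC replicate 2 was only slightly above SHF replicate 2. The means were 76.3 ± 19.9 TPM (SD, n = 3) in SHF and 166 ± 62.4 TPM (SD, n = 3) in CNC libraries, 2.17 times as high in CNC. The log2 fold change was -1.07 with a 95% interval from -2.08 to -0.06. By limma the unadjusted p was 0.0393 and the p adjusted over all 10185 genes tested was 0.82, so the difference did not pass the threshold of 0.05. Fibroblast markers were higher in the same libraries. Per 1000 TPM of fibroblast markers, *Ltbp1* was at 10.1, 16.3 and 7.72 across SHF replicates 1, 2 and 3, against 19.4, 8.53 and 15.01 across CNC replicates 1, 2 and 3, which overlapped. This scaling was chosen after the values were seen, and by its construction it moves every gene by 0.76 on the log2 scale toward SHF, so that 1.72% of all genes tested were still without overlap and higher in CNC. The part of fibroblast content in the *Ltbp1* values was not tested. *Ltbp1* lies on chromosome 17 from 75005568 to 75392512, on the forward strand.

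*Ltbp4* was at 1090.09, 864.71 and 983.27 TPM across SHF replicates 1, 2 and 3, against 1161.97, 704.66 and 702.83 TPM across CNC replicates 1, 2 and 3. It varied little, by at most 1.65 times within a lineage. Means were 979 ± 113 TPM (SD, n = 3) in SHF and 856 ± 265 TPM (SD, n = 3) in CNC libraries, with a log2 fold change of 0.23 and a 95% interval from -0.38 to 0.84. *Ltbp4* lies on chromosome 7 from 27305136 to 27337692, on the reverse strand.

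*Ltbp2* varied widely, at 100.34, 49.27 and 12.16 TPM across SHF replicates 1, 2 and 3, against 152.89, 28.16 and 134.23 TPM across CNC replicates 1, 2 and 3. The highest SHF library was 8.25 times the lowest, and the highest CNC library 5.43 times the lowest. Of 2231 genes with a mean within 1 log2 unit of it, 10.5% had a larger spread within lineages. For the other 6 genes that share was between 61.9% for *Ltbp4* and 77.6% for *Ltbp3*. The log2 fold change of *Ltbp2* was -1.06 with a 95% interval from -2.94 to 0.82. *Ltbp2* lies on chromosome 12 from 84783212 to 84876532, on the reverse strand, and shares exonic sequence with the antisense gene *D030025P21Rik*, which was at 2.71 to 12.37 TPM.

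*Ltbp3*, which carries latent ligand in bone and vessels, was at 29.59, 72.79 and 39.13 TPM across SHF replicates 1, 2 and 3, against 46.76, 23.48 and 28.21 TPM across CNC replicates 1, 2 and 3. The lineages overlapped, with a log2 fold change of 0.47 and a 95% interval from -0.99 to 1.93. Without SHF replicate 2, its highest library, the log2 fold change was 0.11. *Ltbp3* lies on chromosome 19 from 5740904 to 5758532, on the forward strand.

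The 4 binding proteins summed to between 1082 and 1298 TPM in SHF and between 858 and 1589 TPM in CNC libraries (exact two-sided permutation p = 0.8). *Ltbp4* took 80 to 90.2% of that sum in SHF and 68.0 to 82.1% in CNC libraries, which overlapped. The share of *Ltbp1* was 5.98, 8.83 and 5.12% across SHF replicates 1, 2 and 3, against 14.3, 11.9 and 16.3% across CNC replicates 1, 2 and 3, which did not overlap (exact two-sided permutation p = 0.1). The carriers *Ltbp1*, *Ltbp3* and *Ltbp4* together summed to between 3.35 and 5.36 times the TPM of the 3 ligands. That ratio was 5.36, 3.48 and 3.77 times across SHF replicates 1, 2 and 3, against 3.45, 3.82 and 3.35 times across CNC replicates 1, 2 and 3, and the lineages overlapped (exact permutation p = 0.4). Most of the carrier sum was *Ltbp4*. Whether its product carries all 3 ligands alike was not tested, so the ratio does not show carrier in excess of each ligand. The ratio of *Ltbp2* to the 3 carriers also overlapped (exact permutation p = 0.4).

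Tested over all genes, no ligand or binding protein passed the test for a difference between lineages. By limma with Benjamini-Hochberg adjustment, 0 of the 7 genes and 0 of all 10185 genes tested (0%) had an adjusted p under 0.05. The adjusted p-values of the 7 genes ran from 0.82 for *Ltbp1* to 0.924 for *Ltbp3*. At an unadjusted p under 0.05 there was 1 of the 7, *Ltbp1*, against 597 of all genes tested (5.86%), made up of 3.17% higher in CNC, the direction of *Ltbp1*, and 2.69% higher in SHF. *Ltbp1* was also the 1 gene of the 7 whose lineages did not overlap, against 11.8% of all genes tested (5.68% with CNC higher and 6.11% with SHF higher). Of the 7 log2 fold changes 4 were above 0, those of *Tgfb1*, *Tgfb2*, *Ltbp3* and *Ltbp4*, against 51.2% of all genes tested. A p that misses the threshold does not show that the lineages were alike, and the 95% intervals of all of the genes except *Ltbp4* reached log2 fold changes beyond 1 in size. None of the 7 was lineage-exclusive, that is above 5 TPM in all libraries of 1 lineage while listed at 0 in all those of the other.

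**Figure D4:**
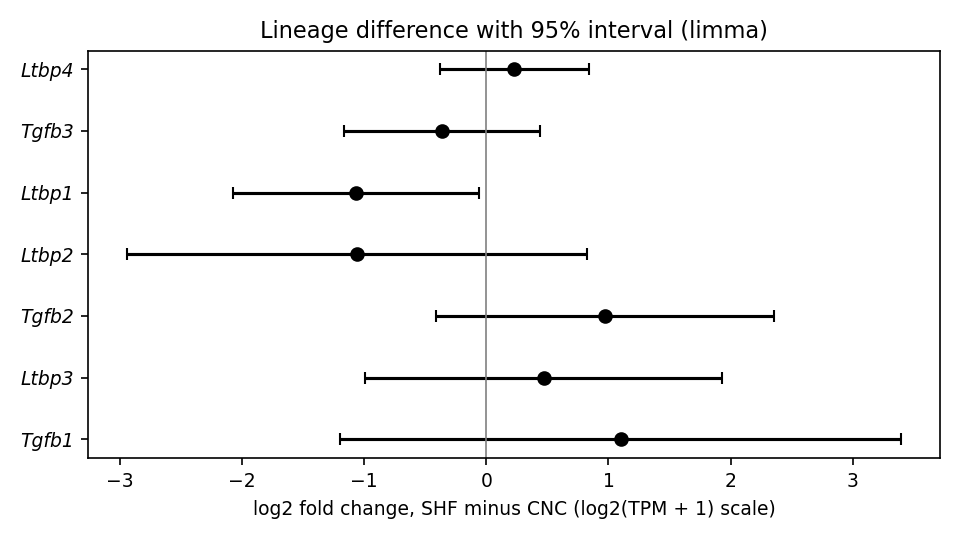
Log2 fold changes of the 7 genes, SHF minus CNC, from limma on log2(TPM + 1), as points with 95% intervals, in the order of mean level. Only the interval of *Ltbp1*, from -2.08 to -0.06, leaves out 0, before adjustment over the 10185 genes tested.

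Genes that act on the latent complex or downstream of the ligand were examined in 5 lists of 55 genes, all found in the matrix, of which 49 passed the filter of at least 1 TPM in at least 3 libraries. None passed the threshold in limma with Benjamini-Hochberg adjustment (lowest adjusted p 0.465), and 12 of 49 (24.5%) had an unadjusted p under 0.05, against 5.86% of all genes tested. In 13 of 49 (26.5%) the lineages did not overlap, against 11.8%, with 8 higher in CNC and 5 higher in SHF libraries. The lists were chosen with earlier results of these data known, so these shares are a description and not an independent test. The median log2 fold change over the 49 was -0.13, beside 0.02 over all genes tested.

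Of 10 matrix proteins that anchor the latent complex or bind ligand, 9 were tested, with a median log2 fold change of -0.37. In 3 of them CNC libraries were all higher, against 5.68% of all genes tested, and in none were SHF libraries. Fibroblast marker sums were higher in the same CNC libraries, 11241 to 11973 TPM against 5878 to 7686 TPM, and their part in these values was not tested. *Fmod*, a collagen-bound proteoglycan that binds TGF-β, was at 117.52, 240.27 and 162.25 TPM across SHF replicates 1, 2 and 3, against 514.18, 448.49 and 1015.73 TPM across CNC replicates 1, 2 and 3, 3.80 times as high on average. Its adjusted p was 0.475 in limma. *Fbln5*, an elastic fiber protein that binds latent TGF-β binding proteins, was at 499 ± 39.8 TPM (SD, n = 3) in SHF and 755 ± 123 TPM (SD, n = 3) in CNC libraries. *Efemp2*, a further elastic fiber protein and the third whose lineages did not overlap, was at 255 ± 17.3 and 329 ± 15 TPM (SD, n = 3 each), and is named here after its values were seen. The abundant *Dcn* and *Bgn*, which bind TGF-β as well, overlapped, with log2 fold changes of -0.13 and -0.27 that changed sign under quantile normalization.

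Of 18 genes for cleavage and activation, 15 were tested, with a median log2 fold change of 0.15. The lineages did not overlap in 2 of them (13.3%), near the 11.8% of all genes tested. *Thbs1*, whose product thrombospondin can release ligand from the latent complex, was at 504.29, 544.75 and 98.67 TPM across SHF replicates 1, 2 and 3, against 66.02, 76.31 and 49.45 TPM across CNC replicates 1, 2 and 3. All SHF libraries were higher, with a wide gap only in replicates 1 and 2, and the adjusted p was 0.548 in limma. *Mmp2*, a gelatinase, was at 1125 ± 223 TPM (SD, n = 3) in SHF and 1540.4 ± 138 TPM (SD, n = 3) in CNC libraries, again without overlap. *Itgb1*, an integrin subunit shared by many receptors, overlapped, with a log2 fold change of 0.28. The activating subunit *Itgb6* and the protease *Mmp9* were listed at 0 in all 6 libraries.

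All 5 receptor genes were tested, with a median log2 fold change of 0.05. *Tgfbr1*, the type I receptor kinase, was at 61.41, 70.29 and 111.88 TPM across SHF replicates 1, 2 and 3, against 4.19, 52.97 and 24.57 TPM across CNC replicates 1, 2 and 3. The lineages did not overlap, but CNC libraries ranged 12.6-fold, and the adjusted p was 0.813 in limma. Its log2 fold change of 2.04 was 1.10 without CNC replicate 1. *Tgfbr2*, *Tgfbr3* and *Eng*, the type II receptor and its co-receptors, had log2 fold changes of 0.24, -0.27 and -0.23 and overlapped, and each changed sign when SHF replicate 1 (*Tgfbr3*) or SHF replicate 3 (*Tgfbr2*, *Eng*) was left out.

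Of 10 Smads and inhibitors, 9 were tested, with a median log2 fold change of 0.91. In 3 of them SHF libraries were all higher, against 6.11% of all genes tested, and in none were CNC libraries. Endothelial sums (89.5 to 591 against 37.6 to 61.0 TPM) and cardiomyocyte sums (67.4 to 126 against 0.73 to 37.9 TPM) were higher in the same SHF libraries, and their part in these values was not tested. *Skil*, a Smad repressor that is also induced by TGF-β, was at 218.59, 205.9 and 179.17 TPM across SHF replicates 1, 2 and 3, against 113.55, 110.66 and 94.69 TPM across CNC replicates 1, 2 and 3, 1.89 times as high in SHF on average. Replicates lay close together, and the adjusted p was 0.796 in limma. *Smurf2*, a ubiquitin ligase for receptors and Smads, was at 17.38, 15.47 and 14.9 TPM in SHF libraries while it was listed at 0 in CNC replicate 1 and measured 1.93 and 3.94 TPM in CNC replicates 2 and 3. *Smad7*, an inhibitory Smad named here after its values were seen, was the third without overlap, at 14.74, 61.74 and 11.56 TPM in SHF and 0.68, 10.48 and 7.15 TPM in CNC libraries. The receptor-regulated Smads *Smad2* and *Smad3*, also named after their values were seen, went the other way. Their log2 fold changes were -0.66 and -1.03, the 2 below 0 beside 7 above 0, and both overlapped. *Bambi*, a decoy receptor, and *Ski*, a further repressor, overlapped, with log2 fold changes of 1.32 and 0.83. With a library left out, *Bambi* ran from 0.87 without CNC replicate 3 to 1.92 without CNC replicate 1. *Ski* ran from 0.44 without CNC replicate 1 to 1.09 without CNC replicate 3.

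Of 12 target genes, 11 were tested, with a median log2 fold change of -0.94. In 4 of them CNC libraries were all higher, against 5.68% of all genes tested, and in none were SHF libraries. *Col1a1* was at 4314 ± 278 TPM (SD, n = 3) in SHF and 10631 ± 2907 TPM (SD, n = 3) in CNC libraries, and *Col3a1* at 7987 ± 1055 and 14311 ± 4438 TPM (SD, n = 3 each). These fibrillar collagens had adjusted p-values of 0.465 and 0.68 in limma. *Tgfbi*, a secreted matrix protein named for its induction by TGF-β, was at 732 ± 135 TPM (SD, n = 3) in SHF and 1296 ± 34.6 TPM (SD, n = 3) in CNC libraries. *Tsc22d1*, a transcription factor, was the fourth, at 99.7 ± 40.9 and 183 ± 40.1 TPM (SD, n = 3 each), and like *Tgfbi* is named after its values were seen. *Eln*, the elastin gene, had a log2 fold change of -1.82 but overlapped, and was at -2.46 without SHF replicate 1. These CNC libraries also had the higher fibroblast marker sums, 11241 to 11973 TPM against 5878 to 7686 TPM, and the part of fibroblast content in these values was not tested.

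**Figure D5:**
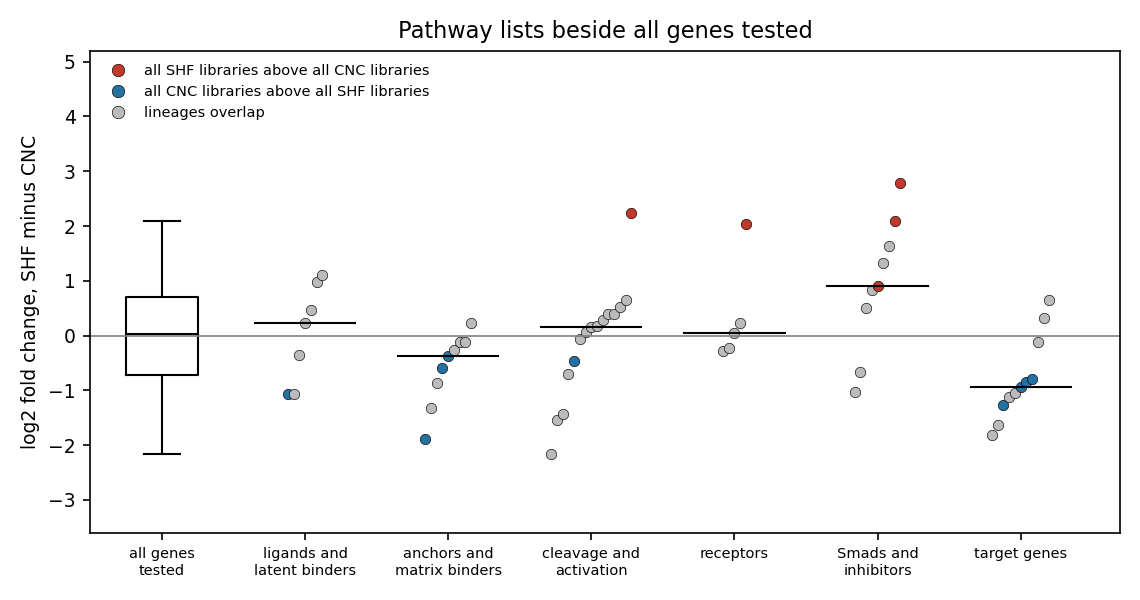
Log2 fold change, SHF minus CNC, of the tested genes of each list, with list medians as bars, beside a box of all 10185 genes tested with its median, quartiles and 5th and 95th percentiles as whiskers. Red and blue points mark genes with all SHF or all CNC libraries higher, namely 3 of 9 anchors, 2 of 15 cleavage and activation genes, 1 of 5 receptors, 3 of 9 Smads and inhibitors and 4 of 11 target genes, against 11.8% of all genes tested.

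The genes with the pattern most like each of 6 of the genes, all except *Ltbp3*, were sought among 7365 genes tested with a mean of at least 10 TPM, by the root mean square difference of log2(TPM + 1) after centring each gene over the 6 libraries. The nearest to *Tgfb3* were *Mdk*, the growth factor midkine, and *Higd2a*, both at 0.11. The nearest to *Ltbp4* was *Kank2* at 0.084, with *Ier2* at 0.10, and the nearest to *Tgfb2* was *Epas1* at 0.14, with *Zfp385c* at 0.21. *Loxl3*, a lysyl oxidase-like enzyme, was nearest to *Ltbp1* at 0.20, with *C1galt1c1* at 0.21. *Ltbp2* was followed most closely by *Sdhaf2* at 0.23 and *Vps53* at 0.36, and *Tgfb1* by *Myc* at 0.37 and *Mrpl42* at 0.39. Among the 7 genes themselves the closest pair was *Tgfb3* and *Ltbp4* at 0.42. The nearest genes above were sought among 7365 and this pair among 7, so these distances cannot be compared with each other. How many genes would lie this close with only 6 libraries was not tested, so the distances are a description.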

How the data were processed

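Bulk RNA sequencing was performed by the study on GFP+ cells of 3 SHF and 3 CNC libraries (SmartSeq2 amplification, Nextera XT). The authors estimated gene levels with RSEM 1.2.25, using bowtie2, against mm10. They deposited TPM, with a column for each library, each summing to about 1000000. The gene annotation is not given in the sources used here, and sequencing depth cannot be read from TPM. All 6 columns were matched to libraries by their library code.

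For SHF minus CNC differences, log2(TPM + 1) values were fitted by limma 3.58.1 (R 4.3.3, lmFit and trended eBayes). The 10185 genes reaching 1 TPM in 3 or more of 6 libraries entered. P-values were adjusted by Benjamini-Hochberg and called under 0.05. On the log2(TPM + 1) scale the changes of low genes are understated. Shares, sums and ratios were tested by exact permutation, two-sided, which with 3 libraries against 3 cannot go below 0.1. Order of level was tested with sign flips over 6 libraries.

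The genes, the 5 pathway lists and the 12 marker lists were chosen with earlier results of these data known. By rule, the genes to be named were all 7, per list the 3 with the highest mean TPM, per pathway list also the 1 with the largest fold change, and the 2 nearest in pattern. Some genes listed at 0 are named outside it. The nearest genes to *Ltbp3* and the exon overlaps of that gene are not reported here. GENCODE M21 gave gene positions (GRCm38, the same build as mm10), and RefSeq the promoters (GRCm38.p6). Alternatives were pseudocounts of 0.1 and 5, other filters and normalizations, no trend, library weights, a replicate block and each library left out. Python 3.11.15, pandas 2.3.3, scipy 1.17.1 and matplotlib 3.10.9 were used.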

Additional observations from a re-analysis of the deposited data

How the results depend on the processing

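Of the genes tested, 0 passed the threshold in limma, and under the alternatives 0 passed except with a pseudocount of 5, when 1 did, *Gm13305*, which is in none of the lists. The counts of passing ligand and binding protein genes and of passing pathway genes were 0 under every alternative fitted by limma. The counts of neighbouring genes in the order of levels and of ratios past 0.05 were 0 with both other pseudocounts and with each library left out, the settings run for them, and for the ratios also with the replicate block. The ratio test could not go below 0.1, nor the order test below 0.0625 with a library left out. For 25 named genes, 380 alternative fold changes were computed, of which 374 kept their direction, and none of those with a test passed the threshold. Quantile normalization turned *Dcn* to 0.040 and *Bgn* to 0.069. Leaving out libraries turned *Tgfbr3* (-0.46 to 0.0059, without SHF replicate 1), *Eng* (-0.51 to 0.14, without SHF replicate 3) and *Tgfbr2* (-0.11 without SHF replicate 3, to 0.52). The cause was not tested. Scaling to the fibroblast markers, added after seeing the data, moves every gene by 0.76 toward SHF, which by construction put *Tgfb3* at 0.40, *Ltbp1* at -0.31, *Tgfb2* at 1.73 and *Ltbp4* at 0.99. On that scale *Ltbp1* overlapped, and *Tgfb2* and *Ltbp4* did not, with SHF higher, as in 19.7% of all genes tested.

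With each library left out in turn, the log2 fold change of *Ltbp1* ran from -1.38 to -0.81, that of *Tgfb2* from 0.58 to 1.41, that of *Ltbp2* from -1.83 without CNC replicate 2 to -0.25 without SHF replicate 3, and the difference in the log2 ratio of *Tgfb2* to *Tgfb3* from 1.12 to 1.54. Same-numbered libraries did not deviate together (correlations of -0.011, -0.004 and -0.011), so the numbers did not pair them. With a replicate block the counts past the threshold were 0, and no call changed. *Tgfb1*, with 3 values of 0, ran from 0.39 to 1.95 with a library left out. The depth of the libraries is unknown.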
